A study of Mus musculus with 25 samples.

Results

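The Siglec genes encode sialic acid-binding immunoglobulin-type lectins of the cell surface. The 7 mouse genes described here, Cd33, Siglech, Siglec1, Siglece, Siglecf, Siglecg and Cd22, were taken by name from a table of 30749 genes, and all 7 were present. The table covered 21 RNA-seq libraries of cells sorted from mouse glioblastomas. MDM, the usual abbreviation for monocyte-derived macrophages, came from type 2 transplanted tumours (2 libraries), type 2 spontaneous tumours (1), type 1 transplanted tumours (4) and type 1 spontaneous tumours (2). Microglia, the resident macrophages of the brain, came from the same 4 classes of tumour with 3 libraries each. The labels number the tumour types 1 and 2 and name the model as spontaneous or transplanted. They give no driver mutation, mouse strain, age, sex, treatment or sort gate, and leave out whether each library stands for its own animal; the p-values therefore reflect variation among libraries that could be technical. The 4 labelled normal brain microglia samples were not analysed here.

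Siglecs read the sialic acids that cap the sugar chains of glycoproteins and glycolipids. Many of them, Siglec-E, Siglec-F, Siglec-G and CD22 among them, carry inhibitory tyrosine motifs in the cytoplasm that recruit the phosphatases SHP-1 and SHP-2 (genes Ptpn6 and Ptpn11) and dampen activating receptors. Siglec-H has no such motif and pairs with the activating adaptor DAP12 (Tyrobp), while Siglec-1, also called sialoadhesin or CD169, is a long adhesion receptor of macrophages. In the mouse, Siglech is used as a marker of microglia and of plasmacytoid dendritic cells, Siglecf is known from eosinophils and alveolar macrophages, Siglece from neutrophils, monocytes and macrophages, Siglecg and Cd22 from B cells, and Siglec1 as a macrophage gene that type I interferon induces.

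All but Siglec1 lie on mouse chromosome 7. In the GRCm38 build, Siglecf (chr7:43351341-43359475, plus strand), Siglecg (chr7:43408192-43418349, plus strand), Cd33 (chr7:43527399-43537424, minus strand) and Siglece (chr7:43648882-43672044, minus strand) form a cluster within 320.704 kb. Cd22 (chr7:30865404-30880342, minus strand) and Siglech (chr7:55768154-55779448, plus strand) lie outside the cluster, and Siglec1 is at chr2:131067801-131086778 on the minus strand. Cd22 overlaps the predicted gene Gm29439 on the opposite strand by 264 bases. Of the 50-base windows of the annotated exons, 8.04% in Cd22 and 8.65% in Siglecg also occur in other genes, against at most 1.33% in the other members, so a small part of the reads of Cd22 and Siglecg is uncertain.

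The promoters of 3 members that were lower in MDM than in microglia are shown because Cd33 and Siglecf, both in the cluster, share stretches of sequence close to the start sites used. The sequences are RefSeq's for GRCm38.p6, from 250 bases before to 50 after the start site, on the strand of the gene: Cd33 at chr7:43533122-43533421 (minus strand), Siglecf at chr7:43351091-43351390 (plus strand) and Siglech at chr7:55767934-55768233 (plus strand). The Cd33 window lies inside the gene coordinates given above, so the start site used for Cd33 is an internal one. The same holds for the windows of Cd22 and Siglece, which are not shown but were searched for motifs. Capitals in Cd33 and Siglecf mark the runs of 12 or more bases that both hold, and capitals in Siglech mark its E-box.
Cd33: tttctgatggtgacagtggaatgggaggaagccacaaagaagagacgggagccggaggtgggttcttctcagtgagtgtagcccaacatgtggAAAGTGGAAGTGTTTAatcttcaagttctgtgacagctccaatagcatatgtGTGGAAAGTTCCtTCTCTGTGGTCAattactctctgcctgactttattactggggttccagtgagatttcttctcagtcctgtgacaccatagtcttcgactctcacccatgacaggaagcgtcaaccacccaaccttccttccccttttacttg
Siglecf: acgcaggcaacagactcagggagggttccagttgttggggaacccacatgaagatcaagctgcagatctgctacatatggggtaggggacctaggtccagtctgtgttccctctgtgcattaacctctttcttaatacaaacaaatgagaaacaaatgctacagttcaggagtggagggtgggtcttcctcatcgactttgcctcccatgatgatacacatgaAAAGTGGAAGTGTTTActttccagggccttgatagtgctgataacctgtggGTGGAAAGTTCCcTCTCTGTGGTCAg
Siglech: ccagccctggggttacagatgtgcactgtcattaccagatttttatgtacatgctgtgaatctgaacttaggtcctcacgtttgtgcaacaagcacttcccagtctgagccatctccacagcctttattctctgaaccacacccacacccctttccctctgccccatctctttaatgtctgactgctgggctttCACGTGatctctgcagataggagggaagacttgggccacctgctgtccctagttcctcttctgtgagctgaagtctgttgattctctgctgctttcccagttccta
The longest shared run, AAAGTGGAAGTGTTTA, has 16 bases and begins at position -157 relative to the start site in Cd33 and at -27 in Siglecf. It was found in 2 of 32851 RefSeq promoters (0.00609%) on either strand, which are these 2. The second run, GTGGAAAGTTCC, was likewise held by 2 promoters, and the third, TCTCTGTGGTCA, by 9. No other pair of members shared a run of that length. These runs were looked for after the sequences had been seen. Of 4 motifs searched on both strands in the promoters of 6 members (Siglec1 not among them), the only match was the E-box CACGTG of Siglech at position -56, a motif that 7.15% of all promoters hold. The letters AGGAAGT of PU.1-type sites (9.35% of promoters) had no match in these windows, nor had the interferon-stimulated response element type (3.44%) and the ETS-IRF composite type (2.72%).

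Read counts and levels below are normalised counts, that is, whole reads recovered from the deposited values and divided by the size factor of the library. Library totals ran between 26530069 and 50365607 reads. Genes with at least 10 normalised counts in at least 3 libraries were tested with limma-trend on log2(normalised count + 1), 17216 in all, and called genes are those whose adjusted p (Benjamini-Hochberg) was under 0.05. All 7 Siglec genes reached 10 in 21 of 21 libraries. Against their labels, 12 of 12 markers of monocyte-derived macrophages, such as Ccr2 and Itga4, were higher in MDM and 12 of 12 microglia markers, such as Tmem119 and P2ry12, were lower. Several libraries stood apart. For 13 T and NK cell markers the summed normalised count was 171702 to 200718 in the 4 MDM libraries of type 1 transplanted tumours and 232973 in type 2 transplanted MDM replicate 1, against 7988 to 31439 in the other 4 MDM libraries. The 10 B cell markers showed the same division, with 21029 to 49233 in those 5 libraries and 781 to 3824 in the other 4. Type 1 spontaneous microglia replicate 2 had the lowest summed microglia markers of the 12 microglia libraries (686578) and the highest summed markers of monocyte-derived macrophages (75525). Fewer cells of a type in a library and less RNA of a gene per cell cannot be told apart in such bulk samples.

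**Figure D1:**
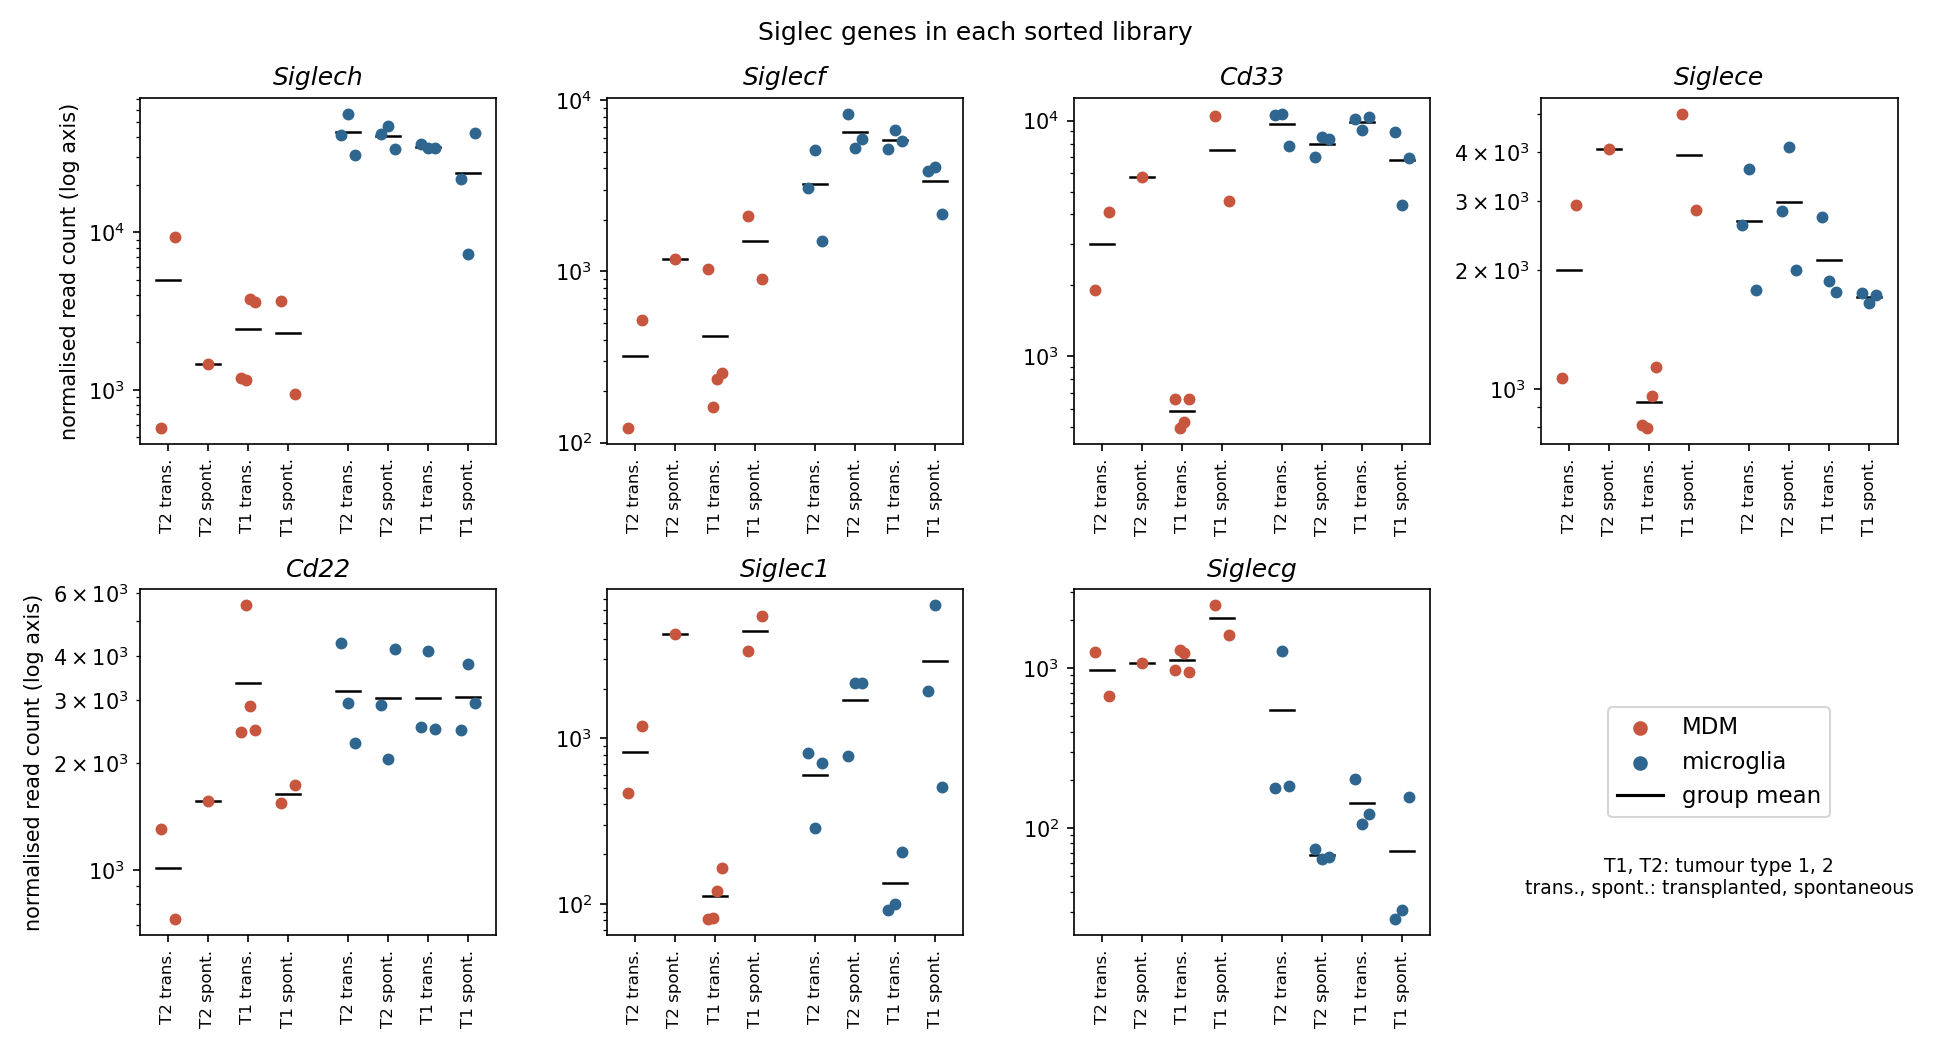
Normalised read count (log axis) of each Siglec gene in each of the 21 libraries, 1 point per library, with the group mean as a line; MDM groups stand left of microglia groups. Siglech, Siglecf and Cd33 lie mostly higher in microglia and Siglecg in MDM, and the 4 type 1 transplanted MDM libraries lie lowest for Cd33 (497 to 660).

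MDM and microglia differed in the levels of most Siglecs. Siglech, Siglecf, Cd33 and Cd22 were lower in MDM than in microglia, by 17.1-, 7.18-, 2.96- and 1.79-fold, and Siglecg was 10.6-fold higher in MDM. Siglec1 and Siglece did not pass the test. Thus 5 of 7 members were called, 1 higher and 4 lower, in a comparison in which 7356 of the 17216 tested genes (42.7%) were called, 23% of all genes higher and 19.8% lower. The median log2 fold change was -0.84 over the 7 members and 0.07 over all tested genes.

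Siglech, whose product signals through DAP12, had the highest level of the family in microglia. Its normalised count had a lowest, median and highest value of 572, 1459 and 9392 in the 9 MDM libraries, against 7244, 35340 and 56552 in the 12 microglia libraries. The groups overlapped through 1 library on each side, type 2 transplanted MDM replicate 3 and type 1 spontaneous microglia replicate 2, and the other 8 MDM libraries were below every microglia library. The log2 fold change was -4.10 ± 0.46 (SE, adjusted p = 1.11e-06). The overlapping MDM library also had the highest summed microglia markers among the MDM libraries (250664, lowest 10559). Type 1 spontaneous MDM replicate 1 had a similar sum (246334) with Siglech at 3651, and type 2 spontaneous MDM replicate 3 had 163386 with Siglech at 1459. The part of microglia in the Siglech level of these libraries was not tested. In type 1 transplanted MDM replicates 3 and 4, in contrast, Siglech was at 3750 and 3588 while the summed microglia markers were the lowest of all libraries (10559 and 14145). These 2 libraries also had the highest mean of the 10 plasmacytoid dendritic cell markers (10.16 and 9.81 on the log2 scale, against 6.60 to 9.51 in the other 7 MDM libraries and 4.46 to 6.59 in microglia). By summed count the order differed, with 15431, 19817, 18302 and 14830 in type 1 transplanted MDM replicates 1, 2, 3 and 4. Replicate 2, the highest, had Siglech at 1159, and replicate 4 was the lowest of its group. Over the cell types this list was mixed, with 6 of 10 markers higher and 3 lower in MDM. Its summed count had a median of 9993 in MDM and 14013 in microglia. The highest means in microglia were those of Lag3 (9875), Tcf4 (3170) and Cox6a2 (1035), while Ccr9, Smim5 and Cd209d were at 11.6, 10.2 and 5.09. Klk1, one of its defining markers, had no read in 5 of 9 MDM and 11 of 12 microglia libraries. The 4 type 1 transplanted MDM libraries, replicates 3 and 4 included, all had reads of it. The part of plasmacytoid dendritic cells was not tested.

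Siglecf, an inhibitory Siglec, followed the same direction. It had a lowest, median and highest count of 122, 517 and 2101 in MDM, against 1503, 5145 and 8321 in microglia, and 8 of 9 MDM libraries were below every microglia library (log2 fold change -2.84 ± 0.35, adjusted p = 3.33e-06). Markers of eosinophils, the cells the gene is best known from, were near 0 in microglia. The 8 eosinophil markers summed to 100 to 8896 in MDM and 3.26 to 279 in microglia, and Epx, the eosinophil peroxidase gene, had no read in any microglia library. The MDM library with the highest eosinophil sum, type 1 transplanted MDM replicate 1 (8896), also had the highest Siglecf count of its group, 1031 against 162, 234 and 256 in replicates 2, 3 and 4. Type 2 transplanted MDM replicate 1 had the next highest eosinophil sum (4047) and the lowest Siglecf (122), and type 1 spontaneous MDM replicate 1 had the highest Siglecf (2101) with an eosinophil sum of 167. Type 2 transplanted MDM replicate 1 had no read of 2 of the 8 markers. Its mean log2 over the list (4.61) was below that of type 1 transplanted MDM replicates 2 and 3 (6.81 and 7.12).

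Cd33 had a lowest, median and highest count of 497, 1909 and 10417 in MDM, against 4401, 8773 and 10700 in microglia. The groups overlapped, and 6 of 9 MDM libraries were below every microglia library (log2 fold change -1.56 ± 0.19, adjusted p = 2.25e-06). The low MDM values were those of the 5 libraries with high T, NK and B cell markers. Here and below, leaving out these 5 libraries also took type 1 transplanted microglia out of the comparison of MDM with microglia. Only tumour classes with both cell types entered that comparison. Without these 5 libraries the log2 fold change was -0.54 ± 0.24 (adjusted p = 0.129) and Cd33 was no longer called.

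Cd22, the inhibitory coreceptor of B cells, was expressed in both cell types, with 726, 1734 and 5556 in MDM, against 2046, 2927 and 4354 in microglia (lowest, median and highest). The groups overlapped widely, with 5 of 9 MDM libraries below every microglia library and 1 above (log2 fold change -0.84 ± 0.21, adjusted p = 0.00295). Of the 10 B cell markers, 9 were higher in MDM and 0 lower, the opposite direction to Cd22. Their summed count was 781, 21029 and 49233 in MDM, against 569, 1367 and 2744 in microglia (lowest, median and highest), and their part in the Cd22 level was not tested. Without the 5 MDM libraries with high lymphocyte markers the difference in Cd22 was -1.29 ± 0.25 (adjusted p = 0.00234).

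Siglecg, an inhibitory Siglec known from B cells, was the member called higher in MDM. Its counts were 666, 1241 and 2472 in MDM, against 26.8, 113 and 1280 in microglia. Type 2 transplanted microglia replicate 2 was the only microglia library within the range of MDM, and the other 11 ended at 202 (log2 fold change 3.41 ± 0.39, adjusted p = 1.23e-06). Without the 5 MDM libraries with high T, NK and B cell markers the difference was 3.39 ± 0.60 (adjusted p = 0.00147). The 2 type 1 spontaneous MDM libraries, with the highest Siglecg (2472 and 1608), had B cell marker sums of 2579 and 781, against 49233 in the library with the highest sum, where Siglecg was 1295.

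Siglec1 and Siglece were the members that did not pass the test. Siglec1 had counts of 80.8, 467 and 5477 in MDM, against 92.4, 747 and 6404 in microglia, with wide ranges in both cell types (log2 fold change 0.72 ± 0.40, adjusted p = 0.159). Leaving out type 1 spontaneous microglia replicate 2, the library at 6404, gave 0.95 and an adjusted p of 0.03. Siglece had counts of 795, 1134 and 4997 in MDM, against 1647, 1941 and 4111 in microglia (log2 fold change -0.02 ± 0.21, adjusted p = 0.955), and the sign of this small difference turned when each library was scaled to the same total (0.22, adjusted p = 0.454).

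**Figure D2:**
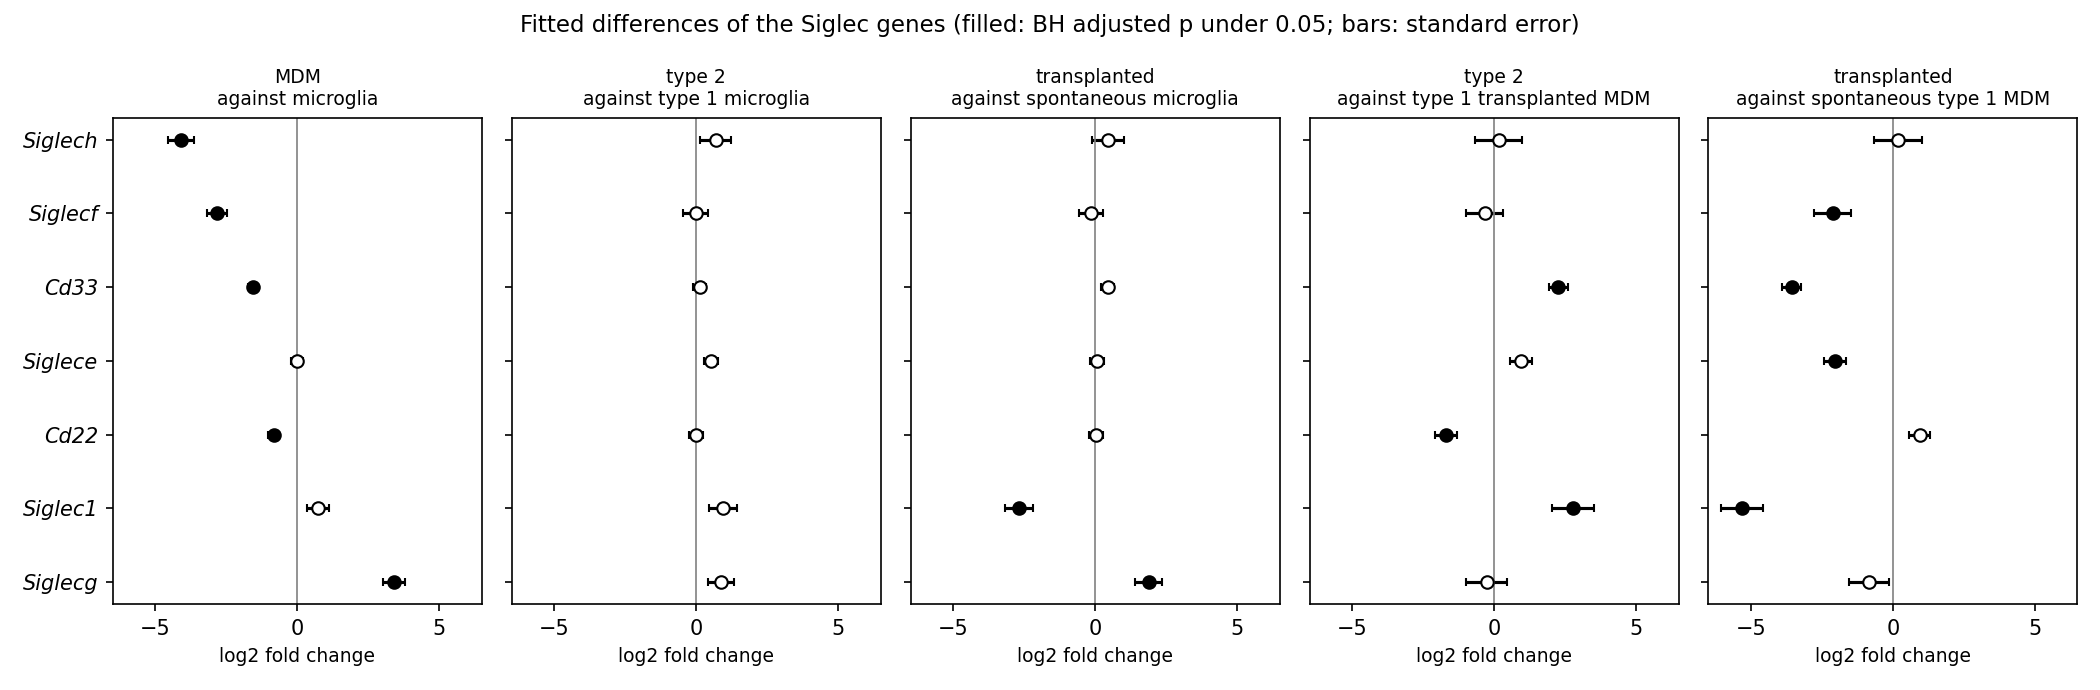
Fitted log2 fold change of each Siglec gene (points) with its standard error (bars) in 5 comparisons; filled points passed an adjusted p under 0.05. Members moved in both directions between MDM and microglia, none passed between tumour types in microglia, and the largest fitted difference was that of Siglec1 in type 1 MDM (-5.32).

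Per kilobase of annotated exon, the order of the levels also differed between the cell types. In MDM the median normalised count per kb was 613 for Siglece, 483 for Siglecg, 444 for Siglech, 355 for Cd22, 314 for Cd33, 190 for Siglecf and 65.4 for Siglec1. In microglia it was 10758 for Siglech, 1886 for Siglecf, 1442 for Cd33, 1050 for Siglece, 599 for Cd22, 105 for Siglec1 and 44.1 for Siglecg. The ranges of every neighbouring pair in both orders overlapped. Within a library, Siglech was above Siglecf in 12 of 12 microglia libraries and took 31.6% to 78.3% of the summed Siglec level per kb. In MDM no member led throughout. Siglece was first in 4 of 9 libraries, Siglech in 3 and Cd22 in 2, the last being type 1 transplanted MDM replicates 1 and 2, which had the highest B cell marker sums (35683 and 49233).

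**Figure D3:**
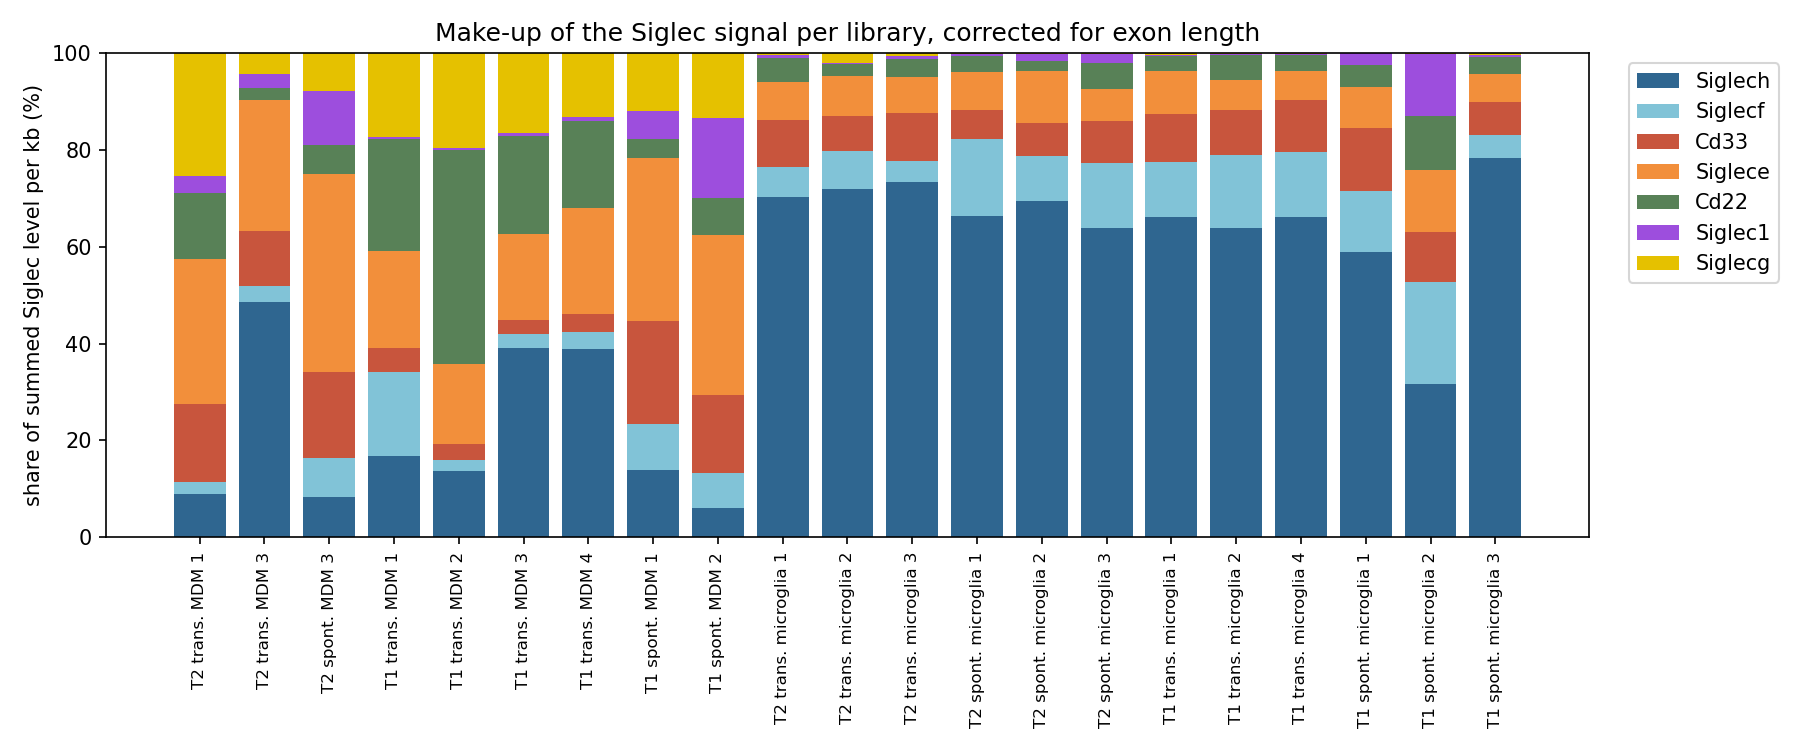
Share of each member in the summed Siglec level per kb of exon (%, stacked bars), with 1 bar per library, MDM on the left and microglia on the right. Siglech takes most of the bar in 11 of 12 microglia libraries, with 31.6% in type 1 spontaneous microglia replicate 2, while the MDM bars are mixed.

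In microglia, no Siglec gene was called between type 2 and type 1 tumours. limma-trend called 0 of 7 members, with 0 at an unadjusted p under 0.05 and 0 by voom on the recovered reads; of all tested genes 81 (0.47%) were called, 0.0465% higher and 0.424% lower, and 8.89% had an unadjusted p under 0.05. Siglece came nearest to a call, with a lowest, median and highest count of 1787, 2713 and 4111 in type 2 and 1647, 1755 and 2734 in type 1 microglia. The ranges overlapped and the log2 fold change was 0.52 ± 0.26 (limma-trend adjusted p = 0.577). The largest estimate was that of Siglec1 (0.94 ± 0.49), so these libraries did not resolve a difference of that size.

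Between transplanted and spontaneous tumours, microglia differed in 2 of 7 members, Siglec1 lower and Siglecg higher, where 317 of 17216 genes (1.84%) were called, 1% of all genes higher and 0.836% lower. Siglec1 had a lowest, median and highest count of 92.4, 248 and 819 in transplanted and 509, 2050 and 6404 in spontaneous microglia. The 3 type 1 transplanted libraries were at 92.4, 101 and 207 and the 3 type 2 transplanted libraries at 819, 289 and 710, against 1933, 6404 and 509 in type 1 and 784, 2168 and 2169 in type 2 spontaneous microglia. The ranges overlapped, with 4 of 6 transplanted libraries below every spontaneous one. The log2 fold change was -2.68 ± 0.49 (adjusted p = 0.00817). Of the T and NK cell markers 6 of 13 were higher in transplanted microglia. The 30 genes of the type I interferon response summed to 76247 to 184783 in transplanted and 112556 to 399821 in spontaneous microglia. Their highest sum stood in type 1 spontaneous microglia replicate 2, the library with the highest Siglec1. Of the 30 genes, 0 were lower and 1 was higher in transplanted microglia, and the median of the list was -0.53 on the log2 scale. Without that library and type 1 transplanted microglia replicates 1 and 2, whose T and NK cell marker sums were 2817 and 4415 against at most 664 in the other 10 microglia libraries, the fold change of Siglec1 was -1.87 ± 0.52 (adjusted p = 0.0857). Fitting only the groups compared also ended its call (adjusted p = 0.0744), as did leaving out the 5 MDM libraries with high lymphocyte markers (adjusted p = 0.0532).

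Siglecg in microglia was at 202, 105 and 122 in type 1 transplanted and 177, 1280 and 184 in type 2 transplanted microglia, against 26.8, 30.8 and 156 in type 1 and 74, 63.5 and 65.9 in type 2 spontaneous microglia. Of the 6 transplanted libraries, 4 were above every spontaneous one, and the log2 fold change was 1.88 ± 0.47 (adjusted p = 0.048). The call rested on single libraries. Without type 2 transplanted microglia replicate 2, the library at 1280, it was 1.41 with an adjusted p of 0.118, and leaving out any of 7 other libraries also ended the call (adjusted p up to 0.114). That library had the highest neutrophil marker sum among microglia (5208, against 17.2 to 1378 in the other 11). The next 2 libraries by that sum, type 2 spontaneous replicate 2 (1378) and type 1 spontaneous replicate 2 (1300), had Siglecg counts of 63.5 and 30.8. Type 1 spontaneous replicate 2 had no read of 6 of the 10 neutrophil markers. Type 2 transplanted replicate 3, with a sum of 940, had a higher mean log2 of these markers (4.83 against 2.50) and Siglecg at 184. The part of neutrophils was not tested. The other 5 members were not called.

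Cd33, Siglec1, Siglece and Siglecf were lower in transplanted than in spontaneous type 1 MDM, 4 of 7 members, where 2366 genes (13.7%) were called, 5.79% higher and 7.96% lower. The median log2 fold change of the members was -2.04, against 0.03 for all tested genes. Cd33 counts were 660, 497, 527 and 659 in transplanted MDM, against 10417 and 4565 in spontaneous MDM. The groups did not overlap (11.9-fold lower, log2 fold change -3.57 ± 0.34, adjusted p = 1.2e-05). Siglec1 counts were 80.8, 82.1, 120 and 164 in transplanted MDM, against 3383 and 5477 in spontaneous MDM. Again the groups did not overlap (39.9-fold lower, -5.32 ± 0.74, adjusted p = 0.000194).

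Siglece, too, did not overlap between these groups, with counts of 809, 795, 961 and 1134 in transplanted MDM, against 4997 and 2838 in spontaneous MDM (-2.04 ± 0.38, adjusted p = 0.00176). Siglecf was at 1031, 162, 234 and 256 in transplanted MDM, against 2101 and 908 in spontaneous MDM, so that 1 transplanted library overlapped (-2.12 ± 0.64, adjusted p = 0.0351). Its call was lost when any of 5 of the 6 libraries was left out, the exception being the transplanted library at 1031 (-1.52 and an adjusted p of 0.253 without type 1 spontaneous MDM replicate 1). It was also lost in 4 of 11 other settings (adjusted p up to 0.124). Siglech (1195, 1159, 3750 and 3588 in transplanted MDM, against 3651 and 935 in spontaneous MDM) and Siglecg (969, 1295, 1241 and 945, against 2472 and 1608) were not called, with log2 fold changes of 0.17 ± 0.84 and -0.86 ± 0.71. Cd22 was at 2441, 5556, 2897 and 2474 in transplanted MDM, against 1544 and 1734 in spontaneous MDM. These groups did not overlap, but Cd22 was not called (0.94 ± 0.38, adjusted p = 0.115); with each library scaled to the same total it was (1.48, adjusted p = 0.0187).

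The drop in these Siglecs came with a drop in other macrophage genes and a rise in lymphocyte markers. Of 8 genes that macrophages share (Adgre1, Csf1r, Cd68, Fcgr1, Itgam, Lyz2, Spi1 and Aif1, a list drawn up after the values were seen), the median was -1.85 on the log2 scale in transplanted against spontaneous type 1 MDM. Their summed count was 76132 to 293199 in transplanted and 395702 to 641701 in spontaneous type 1 MDM. Fcgr1, an Fc receptor, fell by 4.27 ± 0.56 on the log2 scale. Of the microglia markers 10 of 12 and of the border-associated macrophage markers 6 of 10 were lower, the second with sums of 1804 to 3059 in transplanted and 14727 to 26099 in spontaneous MDM. Of the B cell markers 10 of 10 and of the T and NK cell markers 10 of 13 were higher, with T and NK sums of 171702 to 200718 in transplanted and 7988 to 12470 in spontaneous MDM. Type 1 spontaneous MDM replicate 2 had no read of 3 of the 10 B cell markers. Interferon response genes fell as well, 16 of 30 (median -2.34), with sums of 104677 to 152595 in transplanted MDM, against 163475 and 1851132 in spontaneous MDM. Oas2 (-4.00 ± 0.76) and Oasl2 (-3.56 ± 0.61), antiviral genes of the interferon response, were among them. The part of each of these in the Siglec differences was not tested.

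**Figure D4:**
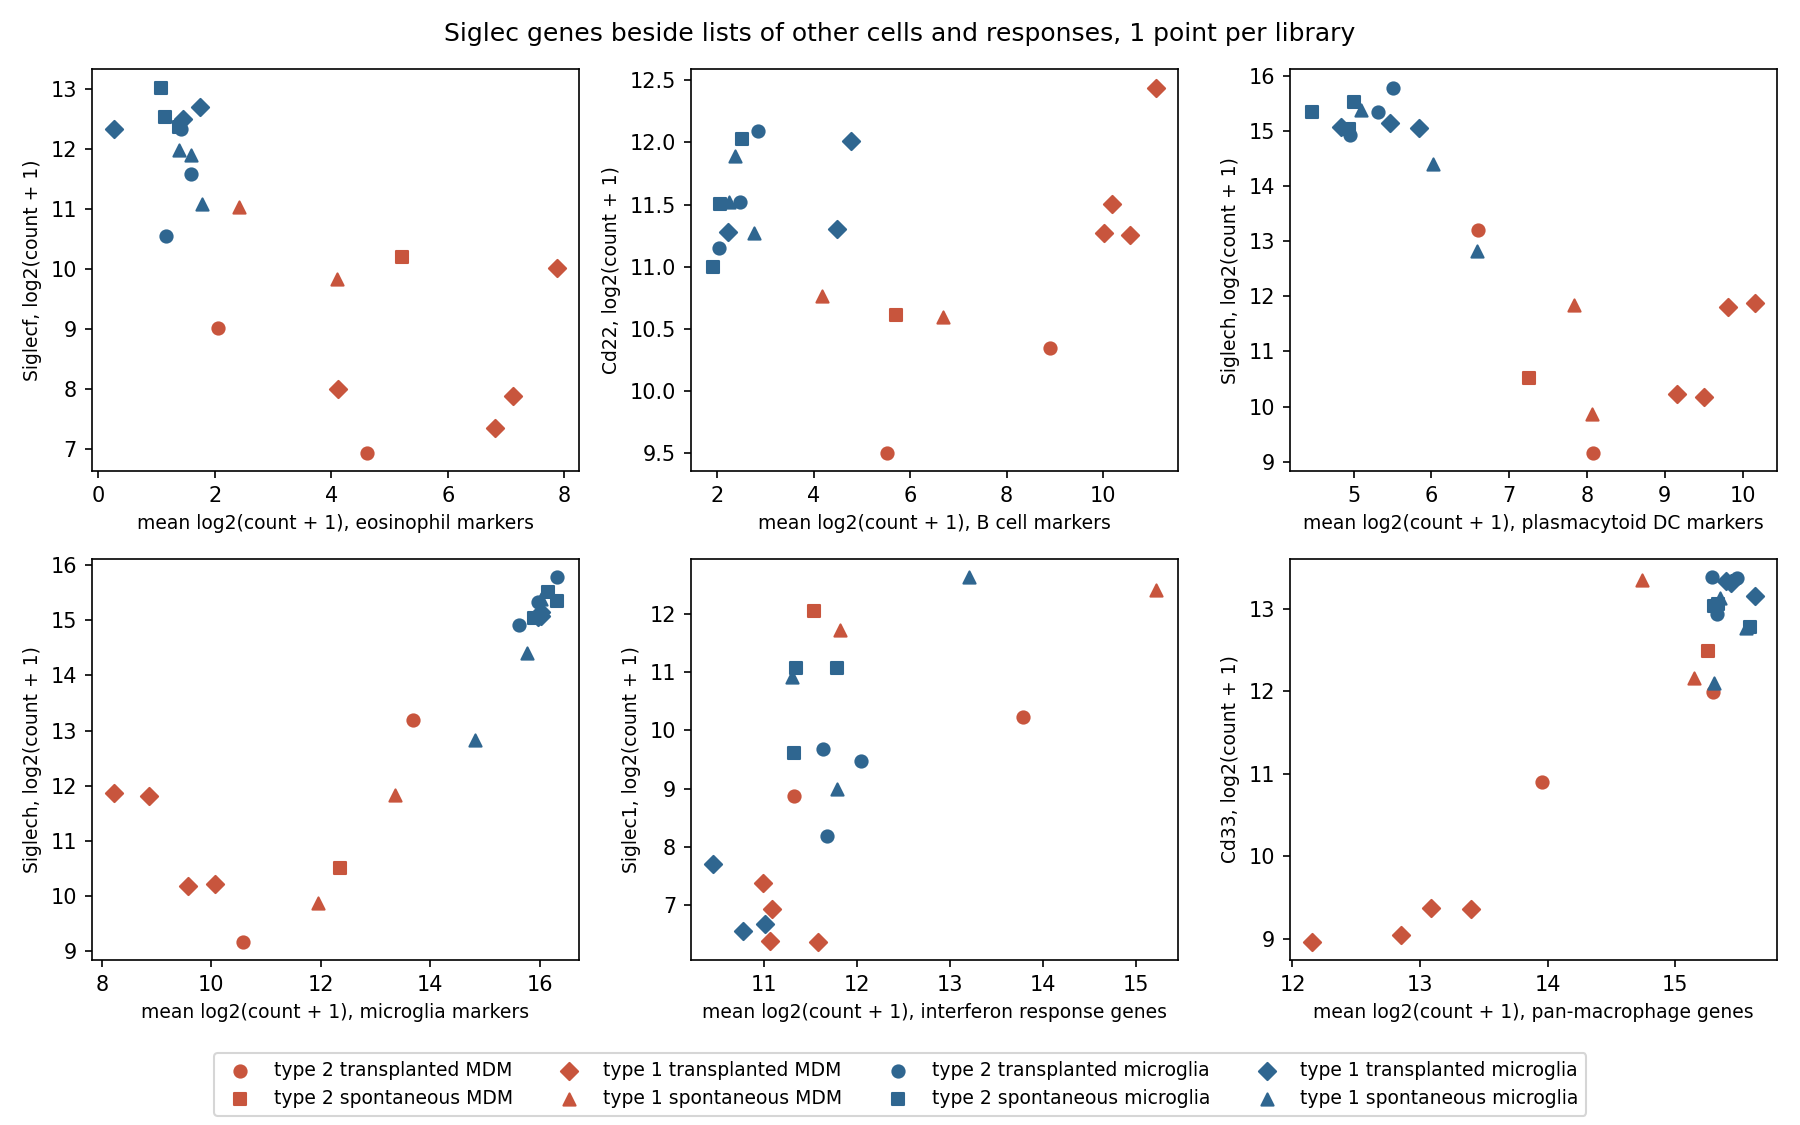
Log2 level of a Siglec gene (vertical axis) against the mean log2 level of a gene list (horizontal axis) in 6 panels, 1 point per library, colour for the cell type and shape for the tumour class. The 4 type 1 transplanted MDM libraries are lowest for Cd33 and for the mean of the macrophage genes, and high for B cell and plasmacytoid dendritic cell (DC) markers.

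Type 2 against type 1 transplanted MDM gave 3 of 7 members, Cd33 and Siglec1 higher and Cd22 lower, where 1018 genes (5.91%) were called, 2.96% in each direction. This comparison shares the 4 type 1 transplanted MDM libraries with the one before. Cd33 was at 1909 and 4085 in type 2, against 660, 497, 527 and 659 in type 1 transplanted MDM (2.26 ± 0.34, adjusted p = 0.00122). Siglec1 was at 467 and 1196 in type 2, against 80.8, 82.1, 120 and 164 in type 1 (2.79 ± 0.74, adjusted p = 0.032). Cd22 was at 1301 and 726 in type 2, against 2441, 5556, 2897 and 2474 in type 1 (-1.69 ± 0.38, adjusted p = 0.0141). For these 3 genes the groups did not overlap. All 3 calls needed type 2 transplanted MDM replicate 3, without which the adjusted p was 0.0698 for Cd33 (1.71), 0.463 for Siglec1 (2.12) and 0.33 for Cd22 (-1.27). Leaving out type 1 transplanted MDM replicate 1, 2 or 3 also ended the call of Siglec1 (adjusted p up to 0.0752), and so did 5 of 11 other settings (adjusted p up to 0.0826). The call of Cd22 was lost in 2 of them, with array weights (adjusted p = 0.0604) and with only the groups compared (adjusted p = 0.0951).

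The 2 type 2 libraries were unlike each other. Replicate 1, like the type 1 transplanted libraries, had high T and NK cell markers (232973, against 21853 in replicate 3), and Siglech was at 572 in replicate 1 and 9392 in replicate 3. In type 2 against type 1 transplanted MDM, 4 of the 8 shared macrophage genes were higher (median of the list 1.60), Fcgr1 by 3.36 ± 0.56. Higher, too, were 10 of 12 microglia markers and 5 of 10 border-associated macrophage markers. Of the B cell markers 2 of 10 were lower (median -2.96), and of the T and NK cell markers 2 of 13 (median -3.12). The part of each of these in the Siglec differences was not tested. Without type 2 transplanted MDM replicate 1, Siglece was called as well (1.68, adjusted p = 0.016). In the single type 2 spontaneous MDM library, Cd33 was at 5741, Siglec1 at 4252, Siglece at 4059, Siglecf at 1176, Siglecg at 1072, Siglech at 1459 and Cd22 at 1561. Siglecg was below the 2 type 1 spontaneous MDM libraries and the other 6 genes were within their range; with 1 library, this group was not tested alone.

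Whether a contrast differed between the cell types was tested as an interaction. The difference between transplanted and spontaneous type 1 tumours was not the same in MDM as in microglia for Cd33 (fold change in MDM minus that in microglia -4.17 ± 0.47, adjusted p = 0.000205) and Siglece (-2.33 ± 0.53, adjusted p = 0.0184), 2 of 7 members, where 777 genes (4.51%) were called (1.39% with a positive and 3.12% with a negative value). In type 1 microglia Cd33 was at 10205, 9139 and 10341 in transplanted and 8990, 4401 and 6970 in spontaneous tumours, and the transplanted libraries were the higher ones. The call of Siglece was lost without type 1 spontaneous MDM replicate 1 (-1.92, adjusted p = 0.0711) and in 3 of 12 other settings (adjusted p up to 0.146). Siglecf was not called (-2.97, adjusted p = 0.0645) but passed in 3 of 12 other settings (adjusted p down to 0.0369). For Siglec1 the interaction was not called (-1.44 ± 1.01, adjusted p = 0.468). Between type 2 and type 1 transplanted tumours the difference was larger in MDM than in microglia for Cd33 (2.31 ± 0.47, adjusted p = 0.0299), 1 of 7 members, where 129 genes (0.749%) were called, 0.395% higher and 0.354% lower; leaving out any of 9 of the 12 libraries ended this call (adjusted p up to 0.212, without type 2 transplanted MDM replicate 3), and so did 3 of 12 other settings (adjusted p up to 0.201). Whether the tumour types differed between models in microglia gave 0 of 7 members by limma-trend, with 2 at an unadjusted p under 0.05 and 0 by voom, where 2 genes (0.0116%) were called, 0.00581% in each direction, and 6.32% had an unadjusted p under 0.05.

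Partner genes of the Siglecs are to be read against the shares of all tested genes that were called: 23% higher and 19.8% lower in MDM against microglia, 0.47% in type 2 against type 1 microglia, 1.84% in transplanted against spontaneous microglia, 13.7% in type 1 MDM and 5.91% in type 2 against type 1 transplanted MDM. B cell markers (9 of 10) and T and NK cell markers (13 of 13) were also higher in MDM, and the part of those cells in the partner genes here and below was not tested. Among 18 adaptors, phosphatases and relays, 8 were higher and 3 lower in MDM. Cblb, a ubiquitin ligase that restrains signalling (2.82 ± 0.22), the Src-family kinase Fgr (2.35 ± 0.26) and Ptpn11, which encodes SHP-2 (0.85 ± 0.14), were higher, and the adaptor Blnk (-1.89 ± 0.17) was lower. Tyrobp, the partner of Siglec-H, was lower in MDM by 0.64 ± 0.24 on the log2 scale (adjusted p = 0.0391), with 28656 ± 14574 (SD, n = 9) in MDM and 53853 ± 26803 (SD, n = 12) in microglia. In transplanted against spontaneous microglia, 1 of the 18 was called, Fgr (-1.43 ± 0.32). In type 1 MDM, the tyrosine kinase genes Lyn (-1.80 ± 0.38) and Btk (-1.26 ± 0.21) were lower in transplanted tumours. The adaptor Hcst (2.14 ± 0.53) was higher there, as were 10 of 13 T and NK cell markers, whose part in the Hcst level was not tested. Btk was the only one of the 18 called in type 2 against type 1 transplanted MDM (0.85 ± 0.21).

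Of 13 tested genes that make, move and remove sialic acid, 8 were lower and 1 higher in MDM, where 19.8% of all genes were lower and 23% higher. The sialic acid lyase gene Npl (-3.12 ± 0.39), Ctsa, whose product protects the lysosomal sialidase (-1.48 ± 0.19), and the sialate esterase gene Siae (-1.18 ± 0.16) were lower. Cmah, which makes the N-glycolyl form of sialic acid that mouse Siglecs such as CD22 bind, was higher (6.09 ± 0.86). Npl fell in transplanted against spontaneous type 1 MDM (-3.34 ± 0.71), as did Ctsa (-1.73 ± 0.35), while Gne, which starts sialic acid synthesis, was higher (1.65 ± 0.52). In type 2 against type 1 transplanted MDM, Npl was higher (3.30 ± 0.71) and the sialidase gene Neu3 lower (-3.34 ± 0.76).

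Sialyltransferases, which attach sialic acid, were divided, with 6 higher and 6 lower in MDM of 16 tested (23% and 19.8% of all genes). St3gal4 (3.07 ± 0.22) and the polysialyltransferase gene St8sia4 (3.31 ± 0.24) were higher, and St3gal6 (-2.18 ± 0.15) and St3gal2 (-1.42 ± 0.17) were lower. St6gal2 was the only one called between type 2 and type 1 microglia (-3.85 ± 0.74). Its counts were near the floor, with no read in 6 of 12 microglia libraries, a median of 2.34 and a highest value of 81.7. St8sia6, an enzyme known in the mouse to make ligands of Siglec-E, was the only one called between transplanted and spontaneous microglia (-2.64 ± 0.35, limma-trend adjusted p = 0.00074). In type 1 MDM, St3gal5 (-1.41 ± 0.33), St8sia1 (-1.76 ± 0.49) and St3gal2 (-1.41 ± 0.32) were lower and St3gal6 (1.45 ± 0.28) higher in transplanted tumours. St6galnac1 was lower in type 2 than in type 1 transplanted MDM (-4.34 ± 0.70). It, too, was near the floor, with no read in 3 of 9 MDM libraries, a median of 11 and a highest value of 35.2.

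Of 8 carriers of Siglec ligands, 4 were higher and 2 lower in MDM (23% and 19.8% of all genes). Cd24a, which encodes the Siglec-G ligand CD24 (6.20 ± 0.39), the sialomucin gene Spn (6.13 ± 0.58) and Muc1 (5.30 ± 0.75) were higher, and Lgals3bp was lower (-1.81 ± 0.22) and fell further in transplanted against spontaneous type 1 MDM (-2.14 ± 0.40). Cd24a and Spn are also expressed by B and T cells, whose markers were higher in MDM, and their part was not tested. Of the Siglec genes outside the 7, Siglec15 had no read in 9 of 9 MDM libraries and 11 of 12 microglia libraries, and Mag, the Siglec of myelin, was lower in MDM (-2.11 ± 0.20). Siglecl1, a gene with the same symbol stem, had at most 51.1 normalised counts in any library.

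For each member, the genes whose library-to-library deviations from the group means were most like its own were sought among 11186 genes in the 20 libraries of groups with 2 or more. Pearson's r was 0.91 for Cd33 with Chst8, 0.93 for Siglec1 with Slc39a14, 0.89 for Siglech with Hspb3, 0.88 for Siglece with Ddah1, 0.89 for Siglecf with Mitf, 0.85 for Siglecg with Prkab1 and 0.77 for Cd22 with Gtpbp1. The next were Thrsp and Trim2 for Cd33, Lilr4b and Ikbke for Siglec1, Nova1 and Sgce for Siglech, Cdk5r1 and F11r for Siglece, Pla2g15 and Ctns for Siglecf, Snupn and Tk2 for Siglecg, and Slc18a1 and Man1a for Cd22. No member was among the 3 genes most like another. The points share libraries, depth and the mix of cells in each sort, the values were picked as the highest of many, and they are given as a description only.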

How the data were processed

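RNA-seq values of 30749 genes in 21 sorted mouse libraries were analysed; 25 samples are labelled. Alignment used STAR 2.7.8a and mm10 with later handling in DESeq2, per the submitters' processing notes; the counter and annotation are not given in the sources used here. SMART-Seq v4 amplified the RNA, per the labels' protocols, and no strand is stated, so reads of overlapping opposite genes cannot be told apart. The values the authors deposited are variance-stabilised, log2-like, and bottom out at 4.22 where no read was found. Another unit had been foreseen in the design, and a test suited to log2 values was used. Inverting the transformation returned whole reads recovered within 1e-06 for 100% of values, with totals of 26530069 to 50365607.

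The test used log2(normalised count + 1) for the 17216 genes that reached 10 in 3 or more libraries. limma 3.58.1 (R 4.3.3, limma-trend) was fitted with 8 group means, weighting tumour classes equally, so a fold is not the ratio of pooled means; the code was tested on simulated data. Positions of the Siglec genes are RefSeq's, and their strands, exon lengths and overlaps are from GENCODE's GRCm38 annotation. Of the genes named, the Siglecs were fixed, partner genes were the up to 4 with the smallest p per list in MDM against microglia and any called elsewhere, up to 3 markers per cell type, and the 3 genes most like each Siglec by Pearson's r. Fcgr1, the macrophage list and Siglecl1 were added after values were seen. The members and gene lists were chosen with earlier results of these data known. Alternatives covered the pseudocount, the filter, the scaling, weights, voom, replicate blocks and left-out libraries. Some genes that the rule names are not reported here.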

Additional observations from a re-analysis of the deposited data

Results flagged for a closer look

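In 4 type 1 transplanted MDM libraries, 1 value lay far from the other 3 in 2 of 7 genes tested for this, where chance gives about 1 in 20. Siglecf was at 1030.6 normalised counts in replicate 1, and Cd22 was at 5555.9 in replicate 2, the libraries with the highest eosinophil and B cell marker sums of that group (8896 and 49233). The part of those cells was not tested.

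For 2 genes an effect differed between the cell types by the interaction test. Cd33 gave -4.17 ± 0.47 for transplanted against spontaneous type 1 tumours (adjusted p = 0.000205) and 2.31 ± 0.47 for type 2 against type 1 transplanted tumours (adjusted p = 0.0299), each as the log2 fold change in MDM minus that in microglia. Siglece gave -2.33 ± 0.53 for the first of these (adjusted p = 0.0184). Both use the 4 type 1 transplanted MDM libraries, in which lymphocyte markers were high.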

How the results depend on the processing

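Of 693 results of single genes under other settings, 643 kept their direction and side of the threshold, 29 lost the call, 4 gained it and 17 changed sign. With 1 library left out, 569 of 651 kept both, 29 lost, 4 gained and 49 changed sign. In MDM against microglia, 4 to 5 members were called under the settings and 5 to 6 with 1 library left out. Each library brought to the same total shifted the median of all tested genes to 0.30 against 0.07 in MDM against microglia, and to 0.55 against 0.03 in transplanted against spontaneous type 1 MDM. The share of called genes that were higher then became 67.7% against 53.7% in the first and 75.8% against 42.1% in the second; it became 65.2% against 54.6% in transplanted against spontaneous microglia and 28.9% against 50% in type 2 against type 1 transplanted MDM. It became 20.8% against 52.7% for cell type by tumour type, 66.1% against 30.9% for cell type by model and 66.7% against 50% for tumour type by model in microglia. Cd33, Siglech, Siglecf, Cd22 and Siglecg kept their call in MDM against microglia under both scalings.

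In transplanted against spontaneous microglia, 2 members were called, but 1 with no filter, with quantile normalisation, on the deposited values, by voom or without the 4 type 1 transplanted MDM libraries, and 0 with only the groups compared, without those 4 and type 2 transplanted MDM replicate 1, or without type 1 spontaneous microglia 2 and type 1 transplanted microglia 1 and 2; leaving out 1 library gave 1 to 2. In type 2 against type 1 transplanted MDM, 3 members became 2 with no filter, at the same total and by voom, 1 with array weights or only the groups compared, and 0 to 4 with 1 library left out. In transplanted against spontaneous type 1 MDM, 4 members were 3 to 4 under the settings and with 1 library left out; at the same total Siglecf was lost and Cd22 gained. For cell type by tumour type, 1 member became 0 at the same total, with the replicate block as a fixed effect and without the 3 microglia libraries named, and 0 to 2 with 1 library left out. For cell type by model, 2 became 1 under the same 3 settings, 3 with Siglecf added on the deposited values, by voom and with the random replicate block, and 1 to 3 with 1 left out. The cause was not tested. Calls over all tested genes ran between 4133 and 7902 under the settings in MDM against microglia (7356 as reported), 5 and 303 in type 2 against type 1 microglia (81), 106 and 2310 in transplanted against spontaneous microglia (317), 327 and 1314 in type 2 against type 1 transplanted MDM (1018), 1740 and 3159 in transplanted against spontaneous type 1 MDM (2366), 0 and 387 for cell type by tumour type (129), 144 and 1057 for cell type by model (777) and 0 and 182 for tumour type by model in microglia (2); with 1 library left out they ran, in the same order, between 6644 and 7567, 34 and 124, 111 and 1535, 79 and 2024, 948 and 2149, 12 and 990, 369 and 949, and 0 and 12.

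Replicate numbers, here and throughout, are those of the sample descriptions, which match the table's columns; some titles number the same samples differently. The main fits did not pair libraries by these numbers. MDM and microglia of the same tumour class and number deviated together with r of 0.0351 to 0.241 in 7 pairs, 2 of them over 0.1. Their median r was 0.07, against -0.03 in pairs of unlike number, and all 7 correlated best with their own number. Whether libraries of the same number come from the same tumour was not tested. With the replicate block as a random effect (correlation 0.14) Siglece in MDM against microglia became 0.0077, and as a fixed effect 0.17; the fixed block gave Cd33 an adjusted p of 0.114 for cell type by tumour type and Siglece an adjusted p of 0.0884 for cell type by model, and it turned the uncalled value of Siglech for cell type by tumour type to 0.40 on the log2 scale.

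The other changes of sign were in differences that had not been called. In MDM against microglia, Siglece became 0.22 at the same total and 0.036 without the 3 microglia libraries. It became 0.37 and 0.61 without the 4 and 5 MDM libraries, which also took type 1 transplanted microglia out of the contrast. In type 2 against type 1 microglia, Siglecf became 0.0050 by quantile normalisation, 0.10 at the same total and 0.066 without the 3 microglia libraries, and Cd33 -0.033 with array weights and -0.050 without the 3 libraries. In transplanted against spontaneous microglia, Siglece became -0.069 and Cd22 -0.021 without the 3 libraries. Siglech became -0.12 at the same total in type 2 against type 1 transplanted MDM. For tumour type by model in microglia, Cd33 became 0.078 and Siglecg -0.26 with array weights.

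With 1 library left out, ranges that crossed 0 were -0.20 to 0.16 for Siglece in MDM against microglia; -0.23 to 0.21 for Siglecf, -0.13 to 0.13 for Cd22 and -0.017 to 0.24 for Cd33 in type 2 against type 1 microglia; -0.10 to 0.15 for Cd22, -0.061 to 0.20 for Siglece and -0.36 to 0.081 for Siglecf in transplanted against spontaneous microglia. In type 2 against type 1 transplanted MDM they were -1.86 to 2.18 for Siglech, -1.37 to 0.70 for Siglecf and -0.72 to 0.20 for Siglecg, and in type 1 MDM -0.81 to 1.15 for Siglech. For cell type by tumour type they were -2.12 to 1.92 for Siglech, -0.022 to 1.33 for Siglec1, -0.080 to 1.38 for Siglece and -0.35 to 1.73 for Siglecf, for cell type by model -1.70 to 0.26 for Siglech, and for tumour type by model -0.15 to 0.36 for Cd22 and -0.013 to 1.41 for Siglecg. Siglecg in microglia, at a median count of 113, had the least depth of the members.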

Other observations

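Mag, the myelin-associated Siglec of oligodendrocytes, had reads in all 21 libraries. Its normalised count had a lowest, median and highest value of 196, 322 and 477 in the 9 MDM libraries and 1037, 1400 and 2808 in the 12 microglia libraries, which did not overlap (log2 fold change -2.11 ± 0.20, limma-trend adjusted p = 1.58e-07; 42.7% of all genes were called). Of the 5 oligodendrocyte markers tested, 2 (Mbp and Cnp) were higher in MDM and 0 lower. Mog, a myelin gene, had no read in MDM and averaged 3.24 ± 4.83 in microglia (SD, n = 12), and Opalin was without reads in 8 of 9 MDM and 10 of 12 microglia libraries. Mbp, another myelin gene, was at 5000 ± 1581 in MDM (SD, n = 9), against 1449 ± 361 in microglia (SD, n = 12). In GENCODE's GRCm38 annotation, Mag (chr7:30899176-30914873) lies 18833 bases from Cd22, on the same minus strand.

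Siglecl1, named outside the rule after its values were seen, was low throughout, at 0, 7.81 and 22.7 normalised counts in MDM and 2.98, 10.8 and 51.1 in microglia (lowest, median and highest), and was lower in transplanted than in spontaneous type 1 MDM (-3.55 ± 0.91, limma-trend adjusted p = 0.014; 13.7% of all genes were called) and higher in type 2 than in type 1 transplanted MDM (3.98 ± 0.91, limma-trend adjusted p = 0.0154; 5.91%).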
